A study of Arabidopsis thaliana with 48 samples.

Results

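Wild-type Arabidopsis thaliana seedlings (Columbia-0, here Col-0) grown with added salt were compared with seedlings grown without it. The S group was raised on ½ MS plant medium carrying 50 mM salt, at 21 °C and 150 µE of light. The Control group was raised on the same medium without salt at the same temperature and light. Whole seedlings were taken at 7 days. The comparison used 3 S and 3 Control libraries, 6 of the 48 RNA sequencing libraries of the series, and covered the 19143 of 32822 genes that reached 1 FPKM in at least 3 of these 6 libraries. FPKM counts sequenced fragments, scaled to the length of the transcript and to the total of the library. The labels do not name the salt, and they do not say whether replicates came from separate plates, so the p-values measure a spread between libraries that may be technical. The other groups used here were Col-0 seedlings of the same age given 1.5 h of high light (HL, 700 µE), heat (HS, 33 °C) or both, with and without S, and S and Control seedlings of a mutant of the transcription factor bHLH35.

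Salt in the root medium lowers the water potential around the plant and loads its cells with sodium and chloride. Plants answer through the hormone abscisic acid (ABA), which PYR/PYL receptors sense, which clade A phosphatases 2C restrain and which SnRK2 kinases pass on to ABF transcription factors. Downstream are dehydrins and other late embryogenesis abundant (LEA) proteins, proline and raffinose sugars. Ions are handled by the SOS1 antiporter at the plasma membrane, NHX antiporters at the vacuole and HKT1, which takes sodium out of the xylem sap. In the root, the Casparian strip of the endodermis limits leakage between cells, and suberin lamellae coat the endodermal cells. Seedlings that have grown on salt from germination, as here, have had days to settle, unlike seedlings sampled hours after a transfer.

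The steps between low FPKM values put the depth at 23500000 to 43450000 fragments in the S libraries and 20800000 to 26750000 in the Control libraries, with S replicate 1 the deepest. On a transcript of 1000 bases, 3 fragments then came to between 0.0946 and 0.208 FPKM, a floor that covers counting error only. The FPKM column sums lay between 765830 and 802976. Each library correlated more strongly with its own group (Pearson's r over genes of at least 0.967) than with the other (at most 0.966). Control replicate 3 stood apart in its seed storage transcripts: the 14 seed storage and maturation genes summed to 182 FPKM there, against 18.4 to 25 FPKM in the S libraries and 7.40 and 17.3 FPKM in the other Control libraries. Of these 14 genes, 5 passed the low-value filter and none was called by limma, with 0 at an unadjusted p under 0.05. Results that turn on that library are given without it as well. The 100 most abundant Control genes took 24.3 to 27.6% of the FPKM sum in S libraries and 30.7 to 32.1% in Control libraries.

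Salt-grown seedlings had higher transcript levels than Control seedlings for 2813 genes and lower levels for 1085, of 19143 tested (limma, Benjamini-Hochberg adjusted p under 0.05). These 3898 calls are 20.4% of the genes tested, 14.7% higher and 5.67% lower. Counts of list members called in this comparison are to be read beside these shares. At a change of at least 1 on the log2 scale, 975 genes were higher and 225 lower. The 3 S values lay above all 3 Control values for 27.8% of genes and below them for 12.9%. The median gene lay at 0.10, and median-of-ratios scaling shifted that median by -0.12. Under that scaling the split was 2009 higher against 1793 lower, so the share of calls that were higher was 52.8% in place of 72.2%. Of the 3898 genes called, 3094 were also called with the same sign under that scaling. None had the opposite sign (0 of 3898), which so small a shift could hardly have produced. The total depended on 2 of the salt libraries: 2414 genes were called without S replicate 1 and 2451 without S replicate 2.

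**Figure D1:**
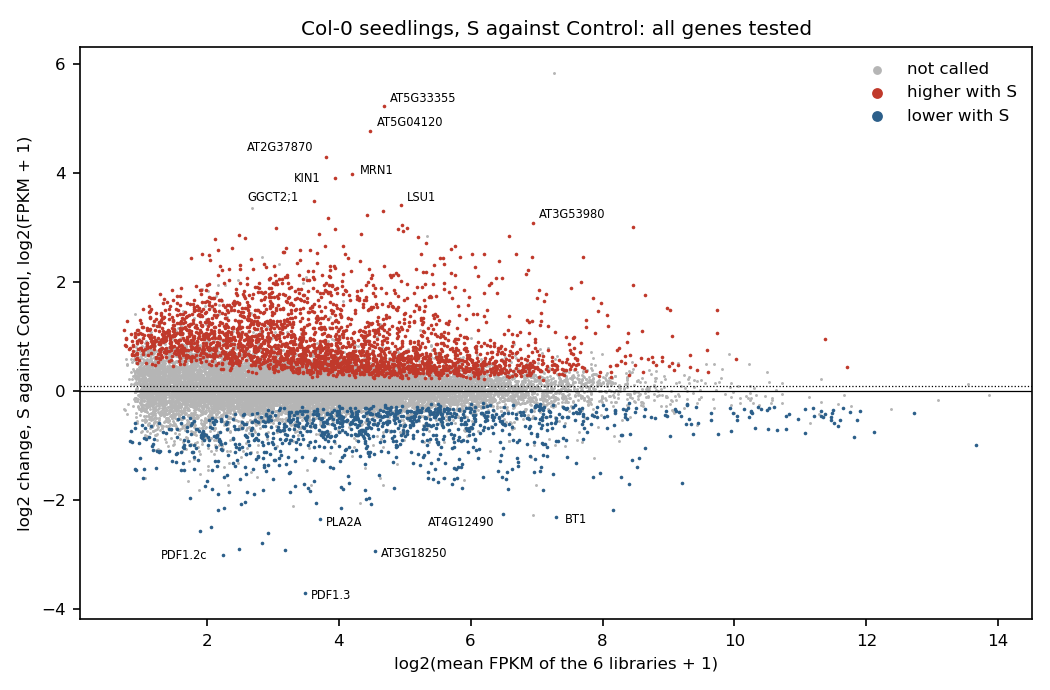
Each point is 1 of the 19143 genes tested, with log2(mean FPKM of the 6 libraries + 1) across and the log2 change of S against Control, on the log2(FPKM + 1) scale, upwards. Red genes were called higher with S, blue genes lower and grey genes not called, and the dotted line marks the median gene at 0.10. The red cloud reaches past 5 and is fullest at low and middle levels, while many of the most abundant genes are blue.

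The largest increase among the called genes was that of AT5G33355, a gene for a defensin-like secreted peptide. It had 44.9, 58.3 and 43.8 FPKM in S seedlings, against 0.293, 0.309 and 0.353 FPKM in Control seedlings. All 3 S libraries lay far above all 3 Control libraries (log2 change 5.23, SE 0.27, limma adjusted p = 4.24e-10). AT5G04120, annotated as a phosphoglycerate mutase family protein, had 65.3, 45.5 and 15.6 FPKM in S and 0.616, 0.521 and 0 FPKM in Control (log2 change 4.78, SE 0.42). AT2G37870, AT3G53980 and AT4G33550, all annotated to the family of lipid-transfer proteins and protease inhibitors, rose by 4.29, 3.09 and 3.05. AT5G54370, annotated as LEA-like, rose by 3.23. The RNA gene AT2G04805 had 32.7, 17.5 and 16.1 FPKM in S, against 0, 13.3 and 0 FPKM in Control, and its call was lost without Control replicate 1 (limma adjusted p = 0.0512). The remaining increases among the 12 largest were in MRN1, KIN1, GGCT2;1, LSU1 and SDI1, which are described with their groups.

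The 12 largest decreases included 4 plant defensins, peptides of the defence that jasmonate and ethylene control together. PDF1.3 was listed at 0 FPKM in all 3 S libraries and had 5.83, 50.3 and 5.30 FPKM in Control libraries (limma adjusted p = 0.000115). PDF1.2c was likewise listed at 0 FPKM in every S library, against 9.02, 9.55 and 3.89 FPKM in Control. PDF1.2b had 0, 0 and 0.681 FPKM in S and 6.86, 8.37 and 3.07 FPKM in Control. PDF1.2 had 0.617, 0.489 and 0 FPKM in S and 20.2, 14.2 and 1.44 FPKM in Control, and lost its call without Control replicate 1 (limma adjusted p = 0.0652). These copies are close in sequence and may share reads, so the split among them is uncertain. BT1, a BTB and TAZ domain protein that nitrate induces, had 50.8, 49.0 and 53.2 FPKM in S, against 327, 274 and 186 FPKM in Control (log2 change -2.30, SE 0.45, limma adjusted p = 0.00106). DIN11, a dark-inducible oxygenase, had 0.309, 0.0686 and 0.484 FPKM in S and 12.8, 5.03 and 9.13 FPKM in Control. PLA2A, a lipid acyl hydrolase of pathogen responses, had 2.13, 2.68 and 2.49 FPKM in S and 44.0, 6.47 and 14.8 FPKM in Control (log2 change -2.35, SE 0.54). Its highest Control value was in replicate 1, without which limma adjusted p was 0.0339. With S, PLA2A was not called in the mutant (log2 change 0.08), on high light (-1.12), in heat (0.99) or on both (-1.06). The lipid-transfer-like AT4G12490 fell by 2.25. The uncharacterised genes AT4G15990 and AT1G24147 fell by 2.91 and 2.59. AT3G18250, a putative membrane lipoprotein, had 4.77, 0.776 and 5.53 FPKM in S and 59.1, 7.52 and 56.3 FPKM in Control, and was called in 3 of 6 fits with a library left out (limma adjusted p = 0.105 without S replicate 2). With S, AT3G18250 was not called in the mutant (log2 change 0.88), on high light (0.01), in heat (0.98) or on both (0.05). AT5G66607 was listed at 0 FPKM in all S libraries, against 6.61, 2.1 and 7.68 FPKM in Control, and was called in 2 of 6 fits with a library left out (limma adjusted p = 0.0827 without Control replicate 3).

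Among 26 genes for proteins that ABA and water deficit induce, all above the low-value filter, 17 rose, 1 fell and 8 were not called; their median log2 change was 0.99, beside 0.10 for all genes tested. Between 14 and 17 of them were called higher when any 1 library was left out, 16 of them without Control replicate 3. The 4 promoters that follow are shown because their genes cover the range of the group: KIN1, COR15A and RD29A rose and RAB18 was not called. Each line gives the 250 bases that end just before the annotated gene start, 5′ to 3′ on the gene's strand, from RefSeq TAIR10.1. Capitals mark the core of the ABA-responsive element, ACGTG, and the core of the dehydration-responsive element, CCGAC, on either strand.
KIN1, chr5:5209467-5209716, plus strand: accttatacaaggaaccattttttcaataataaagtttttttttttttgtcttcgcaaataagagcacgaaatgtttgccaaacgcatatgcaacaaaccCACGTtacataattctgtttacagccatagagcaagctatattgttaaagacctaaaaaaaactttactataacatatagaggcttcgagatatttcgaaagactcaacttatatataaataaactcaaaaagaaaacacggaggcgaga
COR15A, chr2:17712331-17712580, minus strand: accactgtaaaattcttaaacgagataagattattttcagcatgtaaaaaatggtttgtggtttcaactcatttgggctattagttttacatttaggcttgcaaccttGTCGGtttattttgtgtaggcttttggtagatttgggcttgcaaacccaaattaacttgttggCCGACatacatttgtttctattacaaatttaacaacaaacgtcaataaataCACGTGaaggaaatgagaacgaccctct
RD29A, chr5:21240467-21240716, plus strand: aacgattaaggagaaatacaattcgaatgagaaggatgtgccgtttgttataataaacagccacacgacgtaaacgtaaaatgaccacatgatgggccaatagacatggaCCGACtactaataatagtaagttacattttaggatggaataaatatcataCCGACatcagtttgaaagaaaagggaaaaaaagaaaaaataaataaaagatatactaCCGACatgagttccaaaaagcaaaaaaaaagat
RAB18, chr5:26519448-26519697, minus strand: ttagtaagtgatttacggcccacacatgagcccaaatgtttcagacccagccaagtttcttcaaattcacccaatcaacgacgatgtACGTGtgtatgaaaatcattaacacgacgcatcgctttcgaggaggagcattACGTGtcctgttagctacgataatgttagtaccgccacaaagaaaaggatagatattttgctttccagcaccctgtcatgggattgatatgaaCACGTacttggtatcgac
The RAB18 window held 3 ABA-responsive cores and no dehydration-responsive core, and the RD29A window held 3 dehydration-responsive cores and no ABA-responsive core. The COR15A window held 2 of each, its ABA-responsive cores being 1 palindrome read on both strands. The KIN1 window held 1 ABA-responsive core. Of the 18621 such windows of protein-coding genes tested, 24% held an ABA-responsive core, against 27.7% of those called higher and 27.4% of those called lower. The dehydration-responsive core was in 13% of all windows, in 12.8% of those called higher and in 10.5% of those called lower. In the 26 listed genes the counts were 14 and 11 windows. Cores outside these 250 bases, also those after the annotated start, were not looked for, so a window without a core does not show that the promoter lacks it. A match describes letters in a window and does not show that a factor binds there.

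KIN1, a small cold- and ABA-induced protein, had 39.2, 25.6 and 19.1 FPKM in S libraries, against 0.535, 1.51 and 0.645 FPKM in Control libraries (log2 change 3.91, SE 0.29, limma adjusted p = 7.02e-08). KIN2, its near-identical neighbour, had 274, 182 and 164 FPKM in S and 59.9, 58.5 and 46.9 FPKM in Control. The groups were apart for each, though reads may be divided between the copies in part. COR15A, which protects chloroplast membranes during freezing, had 22.9, 11.4 and 9.34 FPKM in S and 1.25, 1.97 and 1.23 FPKM in Control (log2 change 2.56, SE 0.41). The dehydrin ERD10 had 92.0, 61.1 and 61.7 FPKM in S, against 13.4, 16.7 and 10.6 FPKM in Control (log2 change 2.31, SE 0.18). The dehydrins COR47 and LTI30 rose by 1.44 and 1.3, and RCI2B, a small hydrophobic membrane protein, by 1.67. RD29A had 35.4, 19.7 and 24.2 FPKM in S and 8.04, 8.35 and 4.80 FPKM in Control (log2 change 1.76, SE 0.32, limma adjusted p = 0.000601). LTP3, a lipid-transfer protein, rose by 2.31.

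Several members that are standard readouts of ABA did not pass the test. RAB18, a dehydrin whose gene responds closely to ABA, had 25.2, 20.8 and 34.4 FPKM in S libraries and 23.1, 37.9 and 49.5 FPKM in Control libraries. The groups overlapped, and the log2 change was -0.41 (SE 0.32, limma adjusted p = 0.414). RD29B had 17, 9.13 and 15.9 FPKM in S and 4.64, 12.1 and 17.3 FPKM in Control (log2 change 0.40, SE 0.41). LEA7 had 36.3, 19.8 and 29.4 FPKM in S and 4.05, 20.8 and 26.9 FPKM in Control (log2 change 0.98, SE 0.50). In all 3 genes the highest Control value was in replicate 3, the library with seed storage transcripts. Without it the log2 changes were -0.17 for RAB18, 0.76 for RD29B and 1.45 for LEA7, with limma adjusted p of 0.793, 0.256 and 0.0655. Without Control replicate 1, which had the lowest Control value of each, they were -0.70, -0.09 and 0.22, with limma adjusted p of 0.181, 0.917 and 0.791. ERD1, a plastid protease subunit and the single member that fell, had 83.8, 75.9 and 92.3 FPKM in S and 128, 102 and 106 FPKM in Control (log2 change -0.41, limma adjusted p = 0.0467, and 0.199 without Control replicate 1; called in 2 of 6 such fits).

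**Figure D2:**
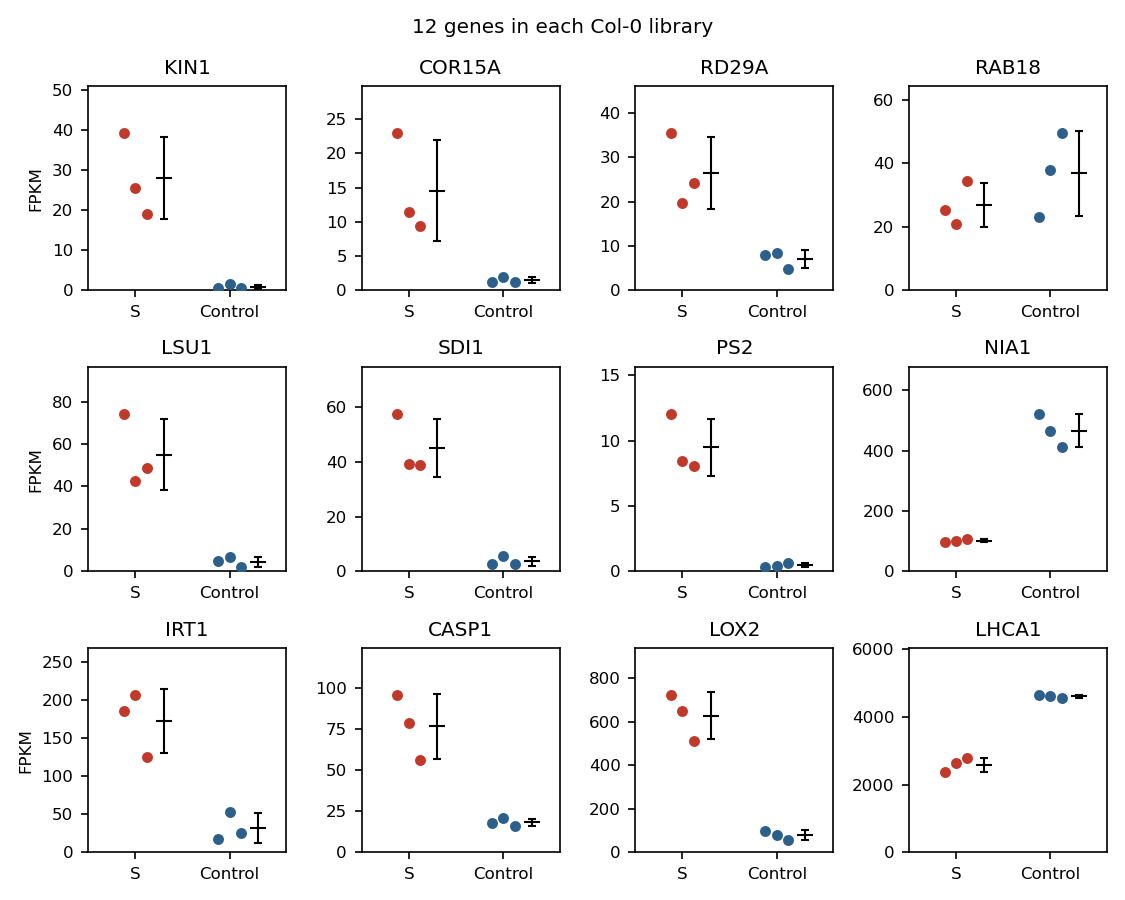
FPKM of 12 genes in every library, with the 3 S libraries (red, replicates 1 to 3 from left to right) left of the 3 Control libraries (blue); the black mark and bar give the mean and 1 SD of each group. Every axis starts at 0. RAB18 is the gene whose S and Control libraries overlap; NIA1 and LHCA1 are lower with S and the others higher.

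Of 14 genes for ABA synthesis and breakdown, 10 passed the filter, 2 rose and 3 fell, with a median log2 change of -0.00. Among all genes tested, 14.7% rose and 5.67% fell. ABA1, zeaxanthin epoxidase, had 196, 198 and 209 FPKM in S and 260, 291 and 288 FPKM in Control (log2 change -0.47, SE 0.13, limma adjusted p = 0.0124). AAO3, the aldehyde oxidase of the last step, had 10.1, 9.27 and 9.77 FPKM in S and 18.4, 16.6 and 18.5 FPKM in Control. CYP707A2, an ABA hydroxylase, fell by 0.94. NCED3, the dioxygenase that limits synthesis in water-stressed leaves, had 2.34, 2.04 and 1.54 FPKM in S and 1.1, 1.28 and 1.17 FPKM in Control and was not called (log2 change 0.44, SE 0.33, limma adjusted p = 0.392). The 2 increases, in CYP707A1 and in BG1, which frees ABA from its glucose ester, were both lost without S replicate 1 (limma adjusted p = 0.147 and 0.128), and were called in 2 and 3 of 6 such fits.

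Of 26 genes of the signalling core, 23 passed the filter, 1 rose and 3 fell (0 and 3 under median-of-ratios scaling), and their median log2 change was -0.05. The increase was in the kinase SNRK2.2, by 0.28, and was called in 3 of 6 fits with a library left out (limma adjusted p = 0.0787 without Control replicate 2). The 3 that fell were receptors. PYL4 had 83.1, 91.2 and 88.6 FPKM in S and 154, 125 and 135 FPKM in Control (log2 change -0.65, SE 0.12, limma adjusted p = 0.00104). PYL5 fell by 0.64 and was not called without S replicate 2 (limma adjusted p = 0.0556). PYL6 fell by 0.99 and was called in 4 of 6 such fits (limma adjusted p = 0.079 without Control replicate 3). Without S replicate 2, 1 receptor was called lower. The phosphatase HAI1, a gene that ABA induces, had 4.40, 2.86 and 1.93 FPKM in S and 1.65, 0.771 and 0.154 FPKM in Control, with limma adjusted p = 0.0521.

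Of 27 stress transcription factors, 22 passed the filter, 6 rose and none fell, where 14.7% of all genes tested rose and 5.67% fell. The median log2 change of the 22 factors was 0.07, and -0.05 under median-of-ratios scaling. Without S replicate 1, 2 of them were called higher. MYB41, which in overexpressing plants turns on suberin synthesis, had 7.13, 4.34 and 1.4 FPKM in S and 0.728, 0.853 and 0.541 FPKM in Control (log2 change 1.47, SE 0.34, limma adjusted p = 0.00432). BHLH35 had 42.5, 35.5 and 29.6 FPKM in S and 22, 20.9 and 27.7 FPKM in Control (log2 change 0.58, SE 0.13, limma adjusted p = 0.00347). HB7, a homeodomain factor that water deficit induces, rose by 0.99, and its call was lost without S replicate 1 (limma adjusted p = 0.0586). The rapid factors of transfer experiments were among those not called: DREB2A had 7.46, 4.68 and 9.61 FPKM in S and 9.05, 13.7 and 10.1 FPKM in Control.

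In proline metabolism, P5CS1 rose and ERD5 fell. P5CS1, the rate-limiting synthetase, had 66.7, 65.1 and 61.6 FPKM in S and 32.8, 27.7 and 29.0 FPKM in Control (log2 change 1.09, SE 0.27, limma adjusted p = 0.00713). ERD5, proline dehydrogenase, had 78.5, 82.5 and 95.5 FPKM in S and 217, 194 and 179 FPKM in Control (log2 change -1.19, SE 0.18, limma adjusted p = 0.000138). ALDH12A1, the dehydrogenase of the next step of proline breakdown, rose by 0.57 and was called in 3 of 6 fits with a library left out (limma adjusted p = 0.0972 without Control replicate 2). Over the 10 genes listed, 3 rose and 1 fell; without S replicate 1, 1 was called higher. Of 5 genes for raffinose and galactinol, 3 passed the filter and 2 rose. GOLS2, a galactinol synthase, had 7.72, 4.57 and 1.96 FPKM in S and 0.315, 0.164 and 0.717 FPKM in Control (log2 change 1.92, SE 0.37). SIP1, a raffinose synthase, rose by 1.1.

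Of 24 genes for sodium, potassium and chloride transport, 22 passed the filter, 6 rose and none fell (6 and 1 under median-of-ratios scaling); the median log2 change was 0.22, and 3 were called higher without S replicate 1. HKT1, the xylem sodium transporter, had 3.87, 4.25 and 3.45 FPKM in S and 1.79, 1.1 and 0.701 FPKM in Control (log2 change 1.17, SE 0.21, limma adjusted p = 0.000624). CLC-C, a vacuolar chloride transporter, had 25.2, 21.7 and 19.98 FPKM in S and 14.6, 13.9 and 12.3 FPKM in Control (log2 change 0.67, SE 0.13). The vacuolar proton pump subunit VHA-A3 rose by 0.57. SOS1 had 10.5, 10.3 and 9.21 FPKM in S and 7.45, 6.46 and 7.94 FPKM in Control (log2 change 0.41, SE 0.11, limma adjusted p = 0.01, and 0.0572 without Control replicate 2; called in 4 of 6 such fits). NHX1 to NHX6 were not called, with log2 changes between -0.22 and 0.35. Of 18 aquaporins, 6 rose and none fell (5 and 0 under median-of-ratios scaling), where 14.7% of all genes tested rose. The median log2 change of the aquaporins was 0.16, beside 0.10 for all genes, and 0.03 under that scaling. Without S replicate 1, 4 were called higher. The tonoplast channel GAMMA-TIP had 784, 707 and 638 FPKM in S and 329, 354 and 366 FPKM in Control (log2 change 1.01, SE 0.13, limma adjusted p = 3.56e-05). PIP2;4, a plasma membrane channel found mainly in roots, had 39.0, 30.7 and 28.3 FPKM in S and 9.23, 10.4 and 11.6 FPKM in Control, and TIP2;2 rose by 1.0.

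Of 19 genes for nitrate and ammonium, 14 passed the filter, 5 fell and 1 rose (6 and 0 under median-of-ratios scaling), with a median log2 change of -0.38. Nitrate reductase NIA1 had 98.1, 100.3 and 108 FPKM in S and 521, 464 and 412 FPKM in Control (log2 change -2.17, SE 0.29, limma adjusted p = 4.82e-05). The asparagine synthetase ASN2 had 97.3, 109.7 and 123 FPKM in S and 255, 286 and 289 FPKM in Control (log2 change -1.32, SE 0.19). WR3, a partner protein of nitrate transporters, fell by 0.82, and GS2, plastid glutamine synthetase, by 0.33. The other nitrate reductase, NIA2, fell by 0.78 and was called in 2 of 6 fits with a library left out (limma adjusted p = 0.0871 without S replicate 1). The increase, in the ammonium transporter AMT1;2, had limma adjusted p = 0.0412 and 0.22 without Control replicate 1, and was called in 1 of 6 such fits. The high-affinity nitrate transporters NRT2:1, NRT2.2, NRT2.4 and NRT2.5 stayed under 0.3 FPKM in all 6 libraries.

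Of 9 genes that phosphate starvation induces, 8 passed the filter and 7 rose, with a median log2 change of 1.36 and 6 or 7 called whichever library was left out. PS2, a phosphatase, had 12, 8.42 and 8.06 FPKM in S and 0.355, 0.405 and 0.666 FPKM in Control (log2 change 2.82, SE 0.36, limma adjusted p = 3.28e-05). The acid phosphatase ACP5 had 38.5, 27.1 and 37.9 FPKM in S and 7.02, 14.4 and 11.7 FPKM in Control. SPX1, a phosphate sensor, had 55.5, 52.2 and 54.9 FPKM in S and 12.1, 19.3 and 24.3 FPKM in Control (log2 change 1.55, SE 0.33). The uptake transporter PHT1;1 rose by 1.57 and PHT1;4 by 1.16, and PHO1, which loads phosphate into the xylem, by 0.61. Lipid remodelling genes were at the edge: SQD2 rose by 0.65 (limma adjusted p = 0.017, and 0.0565 without Control replicate 3; called in 4 of 6 such fits), and SQD1 was not called (log2 change 0.60, limma adjusted p = 0.0516).

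Genes of sulfur shortage were grouped after their values were seen. Of 17 genes for sulfate uptake, reduction and sulfur deficiency, 15 passed the filter, 13 rose and none fell, with a median log2 change of 1.72; 12 or 13 were called in every case with 1 library left out. LSU1, a small protein that sulfur shortage induces, had 74.0, 42.4 and 48.6 FPKM in S and 4.91, 6.79 and 1.93 FPKM in Control (log2 change 3.41, SE 0.32, limma adjusted p = 1.33e-06). SDI1, which represses glucosinolate synthesis under sulfur shortage, had 57.4, 39.3 and 38.9 FPKM in S and 2.79, 5.67 and 2.89 FPKM in Control (log2 change 3.3, SE 0.33). GGCT2;1, a glutathione-degrading cyclotransferase, had 34.1, 18 and 12.9 FPKM in S and 0.472, 1.16 and 1.04 FPKM in Control (log2 change 3.49, SE 0.33). LSU2 and LSU3 rose by 2.94 and 2.88, the glucosidase BGLU28 by 2.55, the vacuolar exporter SULTR4;2 by 1.84, the root uptake transporter SULTR1;2 by 1.22 and the reductase APR1 by 1.72. No S library overlapped a Control library in any of the genes just named. Over the list, the 3 S values lay above all 3 Control values for 14 of the 15 genes tested. The share over all genes tested was 27.8%.

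Of 16 iron genes, 3 rose and 4 fell, where 14.7% of all genes tested rose and 5.67% fell. The median of the iron genes was 0.10, like that of all genes tested. Under median-of-ratios scaling 3 were higher and 7 lower, with a median of -0.03. The 3 that rose are the uptake system of the root epidermis. IRT1, the iron transporter, had 186, 207 and 126 FPKM in S and 17.2, 53.7 and 25.6 FPKM in Control (log2 change 2.51, SE 0.45, limma adjusted p = 0.0005). FRO2, the root ferric reductase, had 53.1, 59.7 and 31.5 FPKM in S and 7.40, 17.8 and 9.10 FPKM in Control. FRU, the regulator of both, also called FIT, rose by 1.50. Of those that fell, FRO6, a shoot ferric reductase, had 23.3, 26.2 and 30.3 FPKM in S and 74.3, 88.2 and 84.7 FPKM in Control (log2 change -1.60, SE 0.26), and the chloroplast reductase FRO7 fell by 0.97. The other 2, bHLH101 and the ferritin FER1, were called in 2 and 3 of the 6 fits with a library left out. bHLH101 had 7.68, 4.61 and 7.44 FPKM in S and 34.5, 7.12 and 10.6 FPKM in Control, with limma adjusted p = 0.292 without Control replicate 1, and FER1 had 0.15 without S replicate 1. With Control replicate 1 left out, 5 iron genes were called higher and 2 lower.

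**Figure D3:**
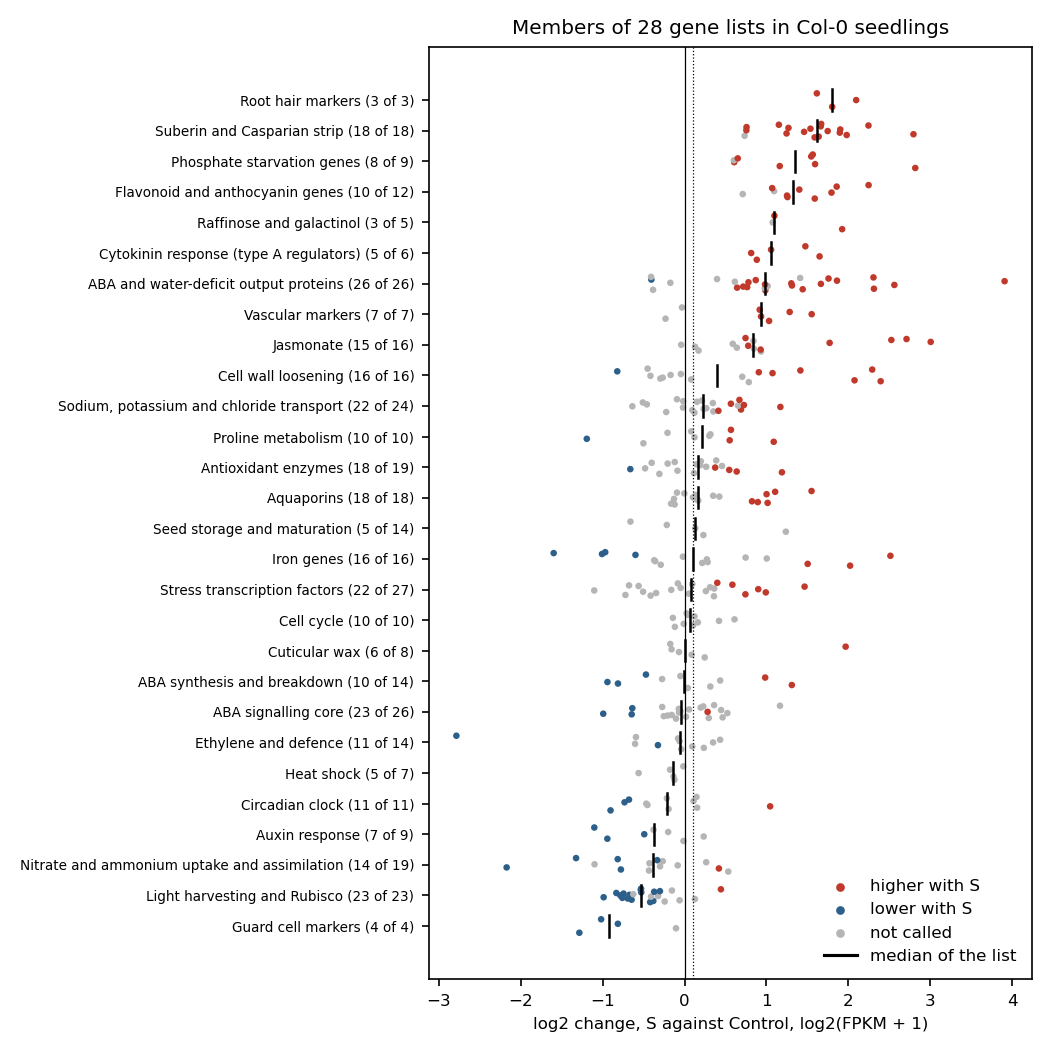
Each point is a member of a gene list that passed the low-value filter, placed by its log2 change of S against Control on the log2(FPKM + 1) scale and coloured by its call; the numbers beside each name give members tested of members listed. The black bar is the list's median and the dotted line the median of all genes, at 0.10. Root hair, suberin and Casparian strip, and phosphate starvation genes lie to the right, and light harvesting and guard cell genes to the left.

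Genes of the root's barrier tissues were higher in salt-grown seedlings as a group. Of 18 genes for suberin and the Casparian strip, all measured, 17 rose and none fell, with a median log2 change of 1.61, and 16 or 17 were called with any library left out. CASP1, a scaffold protein of the Casparian strip, had 95.5, 78.4 and 56.1 FPKM in S and 17.9, 20.8 and 16.3 FPKM in Control (log2 change 1.98, SE 0.24, limma adjusted p = 1.81e-05). CASP2 to CASP5 and MYB36, the regulator of the CASP genes, rose by between 1.15 and 1.90. ASFT, which adds ferulate to suberin, had 76.4, 66.1 and 34.8 FPKM in S and 10.5, 11.9 and 10.7 FPKM in Control (log2 change 2.25, SE 0.26). CYP86A1, a fatty acid hydroxylase of suberin, had 50.7, 55.5 and 34.4 FPKM in S and 18.6, 16.8 and 8.22 FPKM in Control. The transporter ABCG2 had 3.62, 11.9 and 4.63 FPKM in S and was listed under 0.001 FPKM in each Control library. ESB1, a dirigent protein of the strip, had 9.13, 2.77 and 7.43 FPKM in S and 2.51, 5.22 and 2.21 FPKM in Control and was not called.

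The root hair genes COBL9, EXPA7 and EXP18, all 3 of that list, rose by 1.62, 1.8 and 2.1. EXPA7, a root hair expansin, had 21.9, 23.2 and 14.7 FPKM in S and 2.44, 6.24 and 7.19 FPKM in Control. The 7 genes of the thalianol and marneral clusters, root triterpene pathways grouped here after their values were seen, all rose, with a median of 2.61. MRN1, marneral synthase, had 52.2, 31.9 and 16.9 FPKM in S and 1.21, 1.16 and 0.681 FPKM in Control (log2 change 3.98, SE 0.36, limma adjusted p = 9.14e-07). THAS1, thalianol synthase, had 82.5, 63.7 and 27.1 FPKM in S and 6.22, 8.78 and 3.25 FPKM in Control. Of 7 vascular markers, the 5 of the xylem rose, the cellulose synthases CESA4, IRX1 and IRX3 by 0.92, 0.93 and 1.28 and the proteases XCP1 and XCP2 by 1.55 and 1.03. The 2 phloem companion cell markers were not called: SUC2 had 58.3, 76.0 and 70.1 FPKM in S and 92.6, 69.9 and 78.3 FPKM in Control, and HA3 had a log2 change of -0.03. The 5 root cap and root tip markers all stayed below the filter, with a summed level of 1.54 to 3.07 FPKM in S and 0.815 to 1.54 FPKM in Control.

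The 3 root hair markers summed to 51.7, 49.6 and 35 FPKM in S replicates 1, 2 and 3, against 5.59, 11.9 and 14.2 FPKM in Control. The 18 suberin and Casparian strip genes summed to 442, 404 and 257 FPKM in S, against 117, 103 and 84.1 FPKM in Control. The 4 guard cell markers, of the leaf and stem epidermis, summed to 14.3, 17.7 and 19.9 FPKM in S, against 36.7, 40.0 and 41.1 FPKM in Control. S replicate 1 was highest for the root lists and lowest for the guard cell list, and S replicate 3 the reverse. The labels give whole seedlings, and in such bulk samples fewer cells of a type and less RNA per cell cannot be told apart. The part of organ proportions in the changes of PHT1;1, IRT1, FRO2, HKT1, PIP2;4, SULTR1;2, the suberin and Casparian strip genes and the light harvesting genes was not tested.

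**Figure D4:**
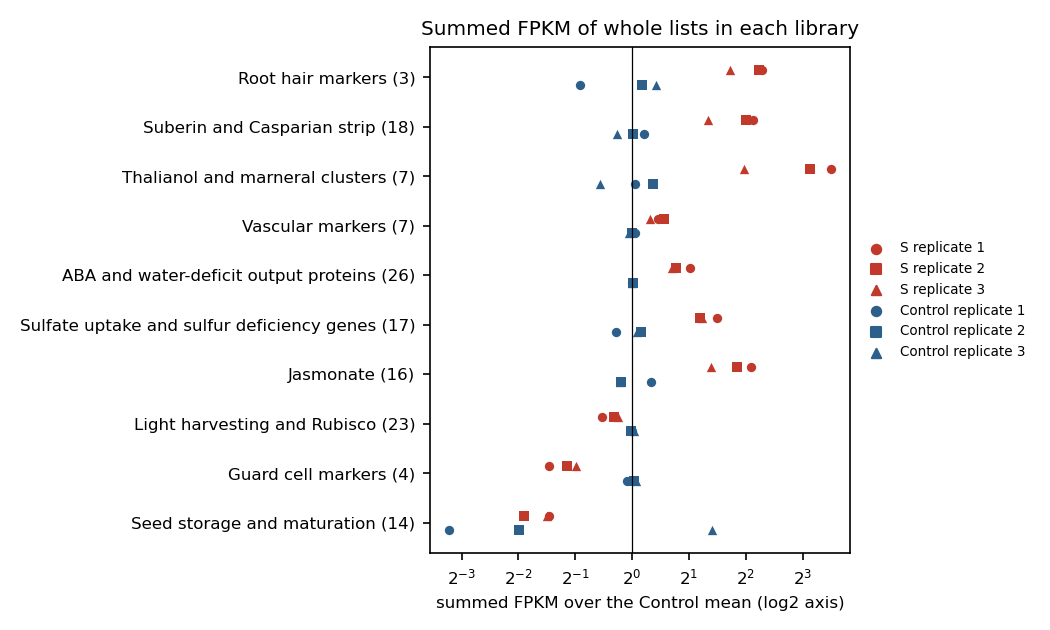
Summed FPKM of whole lists in each library, divided by the mean of the 3 Control libraries, on a log2 axis, with S libraries in red above Control libraries in blue and a marker shape for each replicate; the numbers in brackets count members. The S libraries lie right of all Control libraries for the upper 7 lists and left of them for light harvesting and guard cell genes, and Control replicate 3 stands alone in the seed storage list.

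Of 23 genes for light harvesting proteins and Rubisco, all measured, 15 fell and 1 rose, with a median log2 change of -0.53; between 11 and 15 were called lower with 1 library left out. LHCA1, an antenna protein of photosystem I, had 2364, 2629 and 2781 FPKM in S and 4645, 4608 and 4568 FPKM in Control (log2 change -0.83, SE 0.09, limma adjusted p = 8.4e-06). LHCA4 fell by 0.74, LHCB2.1 by 0.76 and LHB1B2, a photosystem II antenna gene, by 0.99. The Rubisco small subunit genes were split: RBCS2B fell by 0.53, and RBCS1B had 3346, 4223 and 4004 FPKM in S and 2414, 3097 and 3003 FPKM in Control (limma adjusted p = 0.0389, and 0.181 without Control replicate 1; called in 2 of 6 such fits). The LHCB and RBCS copies are close in sequence, so levels of single copies are uncertain. Of 4 guard cell markers, 3 fell; MYB60 had 5.46, 6.44 and 8.41 FPKM in S and 13.7, 22 and 18.4 FPKM in Control (log2 change -1.28, SE 0.22). FAMA, the factor that sets guard cell fate, fell by 1.02.

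Of 11 clock genes, 3 fell and 1 rose. LHY, a morning component, had 46.0, 34.6 and 45 FPKM in S and 85.9, 74.6 and 75.9 FPKM in Control (log2 change -0.90, SE 0.18, limma adjusted p = 0.00163). RVE8, another morning factor, fell by 0.73. ELF4, an evening component, had 141, 130 and 126 FPKM in S and 61.8, 61.8 and 67.1 FPKM in Control (log2 change 1.05, SE 0.19). The labels give no time of day, and a difference in harvest time cannot be told apart from one in the clock. None of the 10 cell cycle genes was called by limma, with 1 at an unadjusted p under 0.05, and their median log2 change was 0.07, or -0.03 under median-of-ratios scaling. None of the 5 heat shock genes tested was called either, with 0 at an unadjusted p under 0.05.

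Flavonoid genes rose together. Of 12 listed, 10 passed the filter and 8 rose, with a median log2 change of 1.33; 6 to 9 were called with 1 library left out. UF3GT, a sugar transferase of anthocyanin synthesis, had 10.7, 12.1 and 6.5 FPKM in S and 0.908, 1.77 and 1.02 FPKM in Control (log2 change 2.25, SE 0.26, limma adjusted p = 9.25e-06). The late enzymes DFR and LDOX rose by 1.86 and 1.8. The first enzyme of the pathway, chalcone synthase TT4, had 382, 323 and 240 FPKM in S and 94.4, 205 and 164 FPKM in Control (log2 change 1.07, SE 0.25). The flavonol regulator MYB12 rose by 1.26. Of 19 antioxidant enzymes, 18 passed the filter, 4 rose and 1 fell, or 4 and 4 under median-of-ratios scaling. Among all genes tested, 14.7% rose and 5.67% fell without that scaling. DHAR1, dehydroascorbate reductase, had 484, 398 and 258 FPKM in S and 183, 156 and 145 FPKM in Control (log2 change 1.19, SE 0.15, limma adjusted p = 3.44e-05). The catalase CAT3 rose by 0.64, and the thylakoid ascorbate peroxidase TAPX fell by 0.66.

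Jasmonate genes were called only higher, where 14.7% of all genes tested rose and 5.67% fell. Of 16 jasmonate genes, 15 passed the filter and 7 rose, with none lower and a median log2 change of 0.84; 4 were called without S replicate 1 or without Control replicate 3. LOX2, the chloroplast lipoxygenase that starts jasmonate synthesis, had 721, 650 and 509 FPKM in S and 100.3, 79.1 and 55.9 FPKM in Control (log2 change 3.01, SE 0.22, limma adjusted p = 5.12e-08). The cyclase AOC2 had 668, 720 and 476 FPKM in S and 195, 166 and 175 FPKM in Control. VSP2, a storage protein that jasmonate induces, had 199, 125 and 49.9 FPKM in S and 39.0, 14.2 and 10.005 FPKM in Control (log2 change 2.53, SE 0.51). VSP1 rose by 2.71. In both groups VSP1, VSP2 and JAZ1 were highest in replicate 1. Of 14 ethylene and defence genes, 11 passed the filter, 2 fell, none rose and 9 were not called. Their median log2 change was -0.06, and none was called without Control replicate 1. PDF1.2, described above, was 1 of the 2 that fell.

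Of 6 type A response regulators, which cytokinin induces and which damp its signal, 5 passed the filter and all 5 rose, with a median log2 change of 1.06; all 5 were called with any library left out. ARR6 had 21.0, 18.5 and 16.1 FPKM in S and 5.51, 5.89 and 6.60 FPKM in Control (log2 change 1.48, SE 0.20, limma adjusted p = 4.46e-05). ARR4 had 101.2, 95.3 and 86.7 FPKM in S and 50.0, 50.9 and 51.0 FPKM in Control. ARR5, ARR7 and ARR16 rose by 1.06, 1.65 and 0.81. Of 9 auxin response genes, 7 passed the filter, 3 fell and none rose; 1 was called lower without Control replicate 1 or without S replicate 2. GH3.3, which conjugates auxin, had 2.73, 1.74 and 2.31 FPKM in S and 7.24, 3.59 and 5.36 FPKM in Control (log2 change -0.94, SE 0.22). Of 16 genes of cell wall loosening, 6 rose and 1 fell, or 5 and 2 under median-of-ratios scaling. EXPA10, an expansin, had 151, 142 and 137 FPKM in S and 19.5, 32.5 and 29.0 FPKM in Control (log2 change 2.4, SE 0.19, limma adjusted p = 2.4e-07). XTH17 and XTH19, xyloglucan enzymes of the root, rose by 2.08 and 2.29. Of 8 cuticular wax genes, 6 passed the filter and CER4, an alcohol-forming reductase, was the single member called (log2 change 1.97, SE 0.30).

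The same contrast was available in 4 sets of libraries, none of which held S or Control libraries of Col-0. The Col-0 sets were fitted together with the comparison above and share its estimate of each gene's spread. A gene of small spread is more easily called in all of them, so these overlaps are not between separate tests. The mutant's own contrast was fitted apart. In the bHLH35 mutant, whose S libraries held 3.39, 4.69 and 3.81 FPKM and whose Control libraries held 5.68, 4.90 and 3.28 FPKM of BHLH35 transcript, 5370 of 19088 genes were called, 28.1%. Of the 2813 genes that rose with S in Col-0, 2253 rose in the mutant, which is 80.1% of the Col-0 genes and 58.3% of the mutant's 3863. Of the 1085 that fell, 805 fell in the mutant, 74.2% of the Col-0 genes and 53.4% of the mutant's 1507. In the mutant, genes called higher made up 20.2% and genes called lower 7.90% of those tested. Under median-of-ratios scaling the mutant's split was 2794 higher against 2623 lower, a share higher of 51.6% in place of 71.9%. No gene was called in opposite directions in the 2 genotypes. The difference between the genotypes in the effect of S was called by limma for 0 of 19468 genes, with 798 at an unadjusted p under 0.05. Without Col-0 Control replicate 2 the count was 13. A miss of the threshold does not show that the genotypes responded alike.

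On a background of high light, S+HL against HL seedlings gave 2808 calls, 14.7% of the same 19143 genes, which were chosen on the S and Control libraries; 1175 of the genes that rose with S alone rose there, 41.8% of the one list and 62.7% of the other. There 9.79% of genes were called higher and 4.87% lower, and 527 of the genes that fell with S alone fell, 48.6% and 56.5%. Median-of-ratios scaling turned that split to 1257 higher against 1379 lower, or 47.7% higher in place of 66.8%. On a background of heat, S+HS against HS gave 4467 calls, 23.3%, and 1415 of the S genes rose, 50.3% of the one list and 48.3% of the other. In heat 15.3% of genes were called higher and 8.02% lower, and 495 of the genes that fell did so there, 45.6% and 32.2%. With that scaling 2241 were higher and 2538 lower in heat, 46.9% higher in place of 65.6%. On both, S+HL+HS against HL+HS gave 3824 calls, 20%, and 1278 rose, 45.4% of the one list and 44.2% of the other. Under both, 15.1% of genes were called higher and 4.86% lower, and 552 of the genes that fell did so there, 50.9% and 59.4%. The split there was 1082 higher and 1606 lower with that scaling, 40.3% higher in place of 75.7%. Over all 5 comparisons, 510 genes rose every time, 18.1% of those that rose with S alone, and 221 fell every time, 20.4%. These counts moved with single libraries, from 1461 without HL replicate 2 to 4506 without HL replicate 1 for S+HL against HL. The suberin and Casparian strip list had medians of 1.61 in Col-0 S, 2.2 in the mutant, 1.02 on high light, 1.2 on heat and 0.72 on both, and the sulfur list 1.72, 2.19, 1.2, 1.70 and 1.38. In the same order, 17, 15, 13, 14 and 7 of the 18 suberin and Casparian strip genes were called higher. For the 15 sulfur genes tested the counts were 13, 14, 11, 14 and 12.

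The cytokinin and phosphate lists were among several that were not called to the same extent in every setting. Flavonoid genes had 8 of 10 called higher with S alone, and 4, 1 and 2 of 10 on high light, heat and both. Root hair markers had 3 of 3 called higher with S alone, and 0, 2 and 2 of 3 in those settings. The cytokinin regulators, with 5 of 5 called and a median of 1.06 in S against Control, had 0 of 5 called and a median of -0.12 in S+HL against HL. In heat 1 of the 5 was called, with a median of 0.51, and in high light with heat 0 of 5, with a median of 0.25. The phosphate starvation list had 7 of 8 called with S alone and 0 of 8, with a median of 0.00, on high light. It had 5 of 8 called in heat, with a median of 0.75, and 1 of 8 in high light with heat, with a median of 0.28. The difference itself was tested after these values were seen. The effect of S on high light differed from that at control light for 41 genes, among them ARR4, ARR6, PS2, ACP5, GAMMA-TIP and TIP2;2, each smaller on high light. These 41 are 0.214% of 19143 genes, with 11 larger (0.0575%) and 30 smaller (0.157%) on high light, and the count was 0 when Control replicate 1, S replicate 1, S replicate 2 or S+HL replicate 2 was left out. The effect of S in heat differed for 61 genes, 0.319%, of which 39 were larger (0.204%) and 22 smaller (0.115%), with a count of 668 when HS replicate 1 was left out and 0 when S replicate 2 was, and in high light with heat for 0 genes, with 1748 at an unadjusted p under 0.05 for light and heat together.

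**Figure D5:**
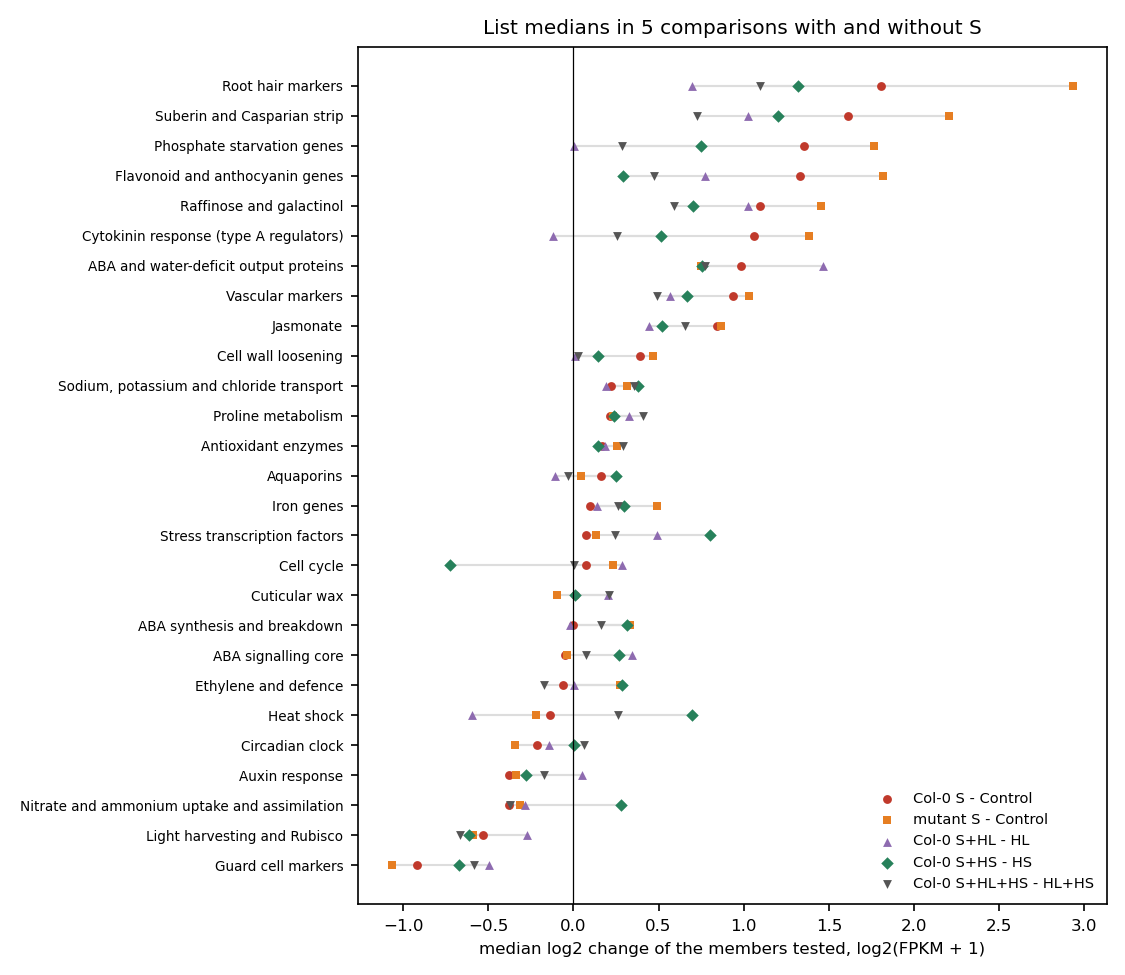
Median log2 change of the members tested, on the log2(FPKM + 1) scale, for 27 gene lists in 5 comparisons of seedlings with and without S: Col-0 S against Control in red, the mutant in orange, and Col-0 on high light, on heat and on both in purple, green and grey. The suberin and Casparian strip medians stay between 0.72 and 2.2, and the cytokinin median on high light lies at -0.12.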

How the data were processed

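RNA from whole seedlings was sequenced in 48 libraries, 3 in each of 16 groups. Reads were trimmed with Trim Galore 0.6.4 and checked with FastQC 0.11.9, per the series' design text, and HISAT2 2.2.1 and TAIR10 are named in the submitters' processing notes; the counting tool is not given in the sources used here. The authors deposited FPKM values per gene, which are not counts, so no count test was used. Of 32824 identifiers, 2 stood on 2 lines and 32822 were used. Genes with at least 1 FPKM in at least 3 of the 6 Col-0 S and Control libraries were tested, in every Col-0 comparison, on log2(FPKM + 1) with limma 3.58.1 in R 4.3.3, with a variance trend, over all 24 Col-0 libraries as 8 group means; the mutant was filtered on its own 6 S and Control libraries and fitted likewise, and the genotype difference took genes that passed in either. Genes that reached the level only with light or heat were therefore not tested. Every log2 change refers to log2(FPKM + 1), where genes of low level appear to change less than they do. Two-sided p-values were adjusted over all genes tested by Benjamini-Hochberg, with calls below 0.05. Tables and figures were made with Python 3.11.15, pandas 2.3.3 and matplotlib 3.10.9. Depth was estimated from the steps between low FPKM values, of which 94.3 to 95.9% were whole fragments within 0.1.

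Named genes were the 12 largest changes in each direction among called genes whose groups did not overlap and whose higher group averaged at least 5 FPKM (2241 higher and 966 lower genes met this), and members of the lists. There were 29 lists from general knowledge and 8 grouped after their values were seen. Members and lists were chosen with earlier results of these data known. Alternatives were another pseudocount, other filters, other scalings, no trend, the contrasted groups alone, a replicate block, an added log2 threshold and each library left out. Promoter windows came from RefSeq TAIR10.1. The values of 1 listed gene are not reported here.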

Additional observations from a re-analysis of the deposited data

Results flagged for a closer look

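The effect of S in Col-0 was compared between growth light and high light, and between control temperature and heat, by a test of the difference itself, chosen after the data were seen. Genes listed only as peroxidases, dirigent proteins, extensin-like proteins or photosystem I subunits were not searched. Among the other genes named or listed here, the test picked out 15. All 15 results share the S and Control libraries, and each gene was called in between 1 and 8 of the 12 fits that left out a single library. On high light, 8 genes had a smaller effect of S. ARR4, a cytokinin response regulator, had a log2 effect of -0.12 on high light and 0.88 without it, a difference of -1.0 (SE 0.16, limma adjusted p = 0.0224, called in 8 of 12 leave-outs). For ARR6, another such regulator, the log2 effects were -0.12 on high light and 1.48 without it, and they differed by -1.60 (SE 0.28, limma adjusted p = 0.0253, 6 of 12 leave-outs). PS2, a phosphate starvation phosphatase, had a log2 effect of 0.12 on high light and 2.82 without it, a difference of -2.69 (SE 0.51, limma adjusted p = 0.0383, called in 2 of 12 leave-outs). For ACP5, an acid phosphatase, the log2 effects were 0.01 on high light and 1.59 without it, and they differed by -1.58 (SE 0.31, limma adjusted p = 0.0417, 1 of 12 leave-outs). GAMMA-TIP, a tonoplast aquaporin, had a log2 effect of 0.01 on high light and 1.01 without it, a difference of -1.0 (SE 0.19, limma adjusted p = 0.0376, called in 4 of 12 leave-outs). For TIP2;2, another tonoplast aquaporin, the log2 effects were -0.04 on high light and 1.0 without it, and they differed by -1.04 (SE 0.19, limma adjusted p = 0.0376, 3 of 12 leave-outs). XTH18, a xyloglucan enzyme, had a log2 effect of -0.48 on high light and 1.41 without it, a difference of -1.89 (SE 0.35, limma adjusted p = 0.0376, called in 3 of 12 leave-outs). For AT5G33355, the defensin-like gene, the log2 effects were 2.76 on high light and 5.23 without it, and they differed by -2.47 (SE 0.39, limma adjusted p = 0.0224, 8 of 12 leave-outs).

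The effect of S was larger on high light for 2 genes. SUC2, the phloem sucrose transporter, had a log2 effect of 0.94 on high light and -0.23 without it, a difference of 1.17 (SE 0.24, limma adjusted p = 0.0421, called in 3 of 12 leave-outs). For NCED3, an ABA synthesis dioxygenase, the log2 effects were 2.74 on high light and 0.44 without it, and they differed by 2.31 (SE 0.47, limma adjusted p = 0.0425, 1 of 12 leave-outs). In heat the effect was smaller for 2 genes and larger for 3. LOX2, a jasmonate synthesis lipoxygenase, had a log2 effect of 1.39 in heat and 3.01 without it, a difference of -1.62 (SE 0.30, limma adjusted p = 0.0257, called in 6 of 12 leave-outs). For KIN1, the ABA output protein, the log2 effects were 2.01 in heat and 3.91 without it, and they differed by -1.90 (SE 0.41, limma adjusted p = 0.0499, 4 of 12 leave-outs). CYP707A4, an ABA hydroxylase, had a log2 effect of 1.1 in heat and -0.27 without it, a difference of 1.37 (SE 0.28, limma adjusted p = 0.041, called in 4 of 12 leave-outs). For DIN2, a dark-inducible glucosidase, the log2 effects were 2.24 in heat and -0.32 without it, and they differed by 2.56 (SE 0.55, limma adjusted p = 0.049, 3 of 12 leave-outs). NRT1.8, a xylem nitrate transporter, had a log2 effect of 2.71 in heat and 0.26 without it, a difference of 2.44 (SE 0.37, limma adjusted p = 0.0171, called in 8 of 12 leave-outs).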

How the results depend on the processing

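The number of genes called in Col-0 S against Control stayed within 1.5 times of 3898 under another pseudocount, both other filters, both scalings, no variance trend, the contrasted groups alone and the replicate block (3703 genes), and was 1200 with an added log2 change of at least 1. That added threshold left 1895 genes in the mutant, 679 in S+HL against HL, 899 in S+HS against HS and 544 in S+HL+HS against HL+HS. Leaving out 1 library gave 2414 to 3703 genes for Col-0 S, 3750 to 4942 for the mutant, 1461 to 4506 for S+HL, 2736 to 4455 for S+HS, 1791 to 3680 for S+HL+HS, 0 to 13 for the genotype difference, and 0 to 48, 0 to 668 and 0 to 17 for the differences on high light, heat and both. With the contrasted groups alone, S+HL gave 996, S+HS 2701, the genotype difference 1, and the differences on high light, heat and both 9, 4 and 6. With no filter these last 4 gave 2, 22, 25 and 2. The difference on high light gave 14 with the replicate block; that in heat gave 116 at a mean of at least 5 FPKM and 40 with no trend; that on both gave 4 with a pseudocount of 0.1. The causes were not tested. RD29B, not called, had log2 changes between -0.089 (without Control replicate 1) and 0.76 (without Control replicate 3). Of 151 named genes called, 3 were not called under the replicate block and 6 to 22 without a single library, and none changed sign. Same-numbered S and Control libraries did not deviate together (Pearson's r 0.04, -0.04 and 0.02 in Col-0), so the numbers were not taken as pairs. Depth limits genes near the floor of 0.0946 to 0.208 FPKM.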

Other observations

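Further gene groups, chosen after their values were seen, moved with S in Col-0. Of 62 genes annotated to the peroxidase superfamily, whose secreted members cross-link cell walls, 45 passed the low-value filter, 29 rose and 2 fell, with a median log2 change of 1.29 beside 0.10 for all genes tested. AT2G38390 had 71.9, 87.3 and 36.5 FPKM in S libraries, against 10.3, 18.8 and 10.4 FPKM in Control libraries (log2 change 2.19, SE 0.29, limma adjusted p = 3.47e-05). Neither of those that fell was called without Control replicate 1. Of 26 dirigent proteins, a family that guides the coupling of phenolic radicals, 20 passed the filter and 14 rose, with a median of 1.59. AT3G24020 had 27.8, 27.2 and 22.8 FPKM in S and 1.56, 4.94 and 1.62 FPKM in Control (log2 change 2.97, SE 0.39). Of 15 extensin-like proteins, structural proteins of the wall, 10 passed the filter, 9 rose and 1 fell, with a median of 1.74; EXT10 had 28.8, 22.8 and 16.9 FPKM in S and 3.85, 6.21 and 5.26 FPKM in Control. The one that fell, AT1G26250, had 2.66, 3.23 and 2.65 FPKM in S and 39.1, 3.34 and 13.6 FPKM in Control; 1 member was called lower without Control replicate 2 and none in the other 5 fits with a library left out. Extensin genes are repetitive and close in sequence, so the level of each copy is uncertain. The part of organ proportions in these changes was not tested.

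Of 13 photosystem I subunit genes, all measured, 12 fell and none rose, with a median log2 change of -0.46 and 9 to 12 called with 1 library left out. PSAL, a subunit near the docking site of the mobile antenna, had 2141, 2398 and 2493 FPKM in S and 3347, 3443 and 3680.2 FPKM in Control (log2 change -0.58, SE 0.09). Of 8 dark-inducible genes, which darkness and sugar shortage induce, 5 fell and none rose, with a median of -0.96; 3 were called without S replicate 1, without S replicate 2 or without Control replicate 1. SEN1, a senescence-associated gene, had 53.5, 43.6 and 80.2 FPKM in S and 311, 151 and 179 FPKM in Control (log2 change -1.81, SE 0.41, limma adjusted p = 0.0038). DIN10, a raffinose synthase-like gene, had 173, 184 and 258 FPKM in S and 604, 499 and 488 FPKM in Control. Of the 7 plant defensin 1 genes, 6 passed the filter and 4 fell, with a median of -2.64; PDF1.4 had 10.7, 12.9 and 11.4 FPKM in S and 34.2, 12.5 and 24.6 FPKM in Control and was not called.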
